A study of Mus musculus with 12 samples.

Results

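The plasminogen activator system was followed through 4 genes chosen by symbol: Plat, Plau, Plaur and Serpine2. Of these, 3 genes had probe sets naming exactly 1 gene, 5 probe sets in all, among 18193 genes and 34945 such probe sets on the arrays. Serpine2 was not analysed here. Granulosa cells had been cut by laser from the large follicles of 3-week-old mice, and each of the 12 samples was hybridised to 1 one-colour array. The 4 groups of 3 arrays were WT mice given PMSG (pregnant mare serum gonadotropin, which acts like follicle-stimulating hormone), bERKO mice given PMSG, WT mice given PMSG and then hCG (human chorionic gonadotropin, which acts like luteinizing hormone), and bERKO mice given PMSG and then hCG. All 4 groups thus received PMSG; cells were taken 48 h after it in the PMSG groups and 4 h after hCG in the hCG groups. bERKO mice lack estrogen receptor beta, encoded by Esr2, in the whole animal rather than in granulosa cells alone. Neither the allele nor the strain nor how many animals went into an array is stated in the labels.

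Plasminogen is a circulating zymogen that 2 serine proteases cut to the active enzyme plasmin. These are the tissue-type activator, encoded by Plat, and urokinase, encoded by Plau. Urokinase is held at the cell surface by its receptor, encoded by Plaur, and Serpine2 encodes protease nexin-1, a serpin that blocks both activators. Plasmin dissolves fibrin, degrades matrix proteins and activates latent metalloproteases, and in the ovary the system is known for its part in opening the follicle wall after the luteinizing hormone surge. Granulosa cells are a known source of activators, and in the mouse the Plat transcript is also stored in the oocyte.

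The promoter of Plaur is shown because it is the promoter in RefSeq's table (build GRCm38.p6) that belongs to a member with values here. The 250 bases before its start lie at chr7:24462233-24462482 on the + strand, and the capitals mark its match to the AP-1 motif.

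Plaur: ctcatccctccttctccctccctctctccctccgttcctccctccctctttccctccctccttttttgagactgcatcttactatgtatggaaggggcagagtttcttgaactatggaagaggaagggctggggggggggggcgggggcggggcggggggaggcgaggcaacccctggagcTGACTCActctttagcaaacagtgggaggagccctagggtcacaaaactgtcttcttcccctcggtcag

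The capitals, TGACTCA, ran from base -69 to base -63 before the start. The AP-1 motif, searched as TGANTCA on both strands, was found in 6.75% of the 32851 promoters of that length. Further matches in Plaur were 3 GC boxes (GGGCGG, in 32.7% of promoters), 1 EGR motif (GCGNGGGCG, in 4.7%), which overlaps the GC boxes, and 1 C/EBP motif (TTGCNNAA, in 9.56%). The other 7 motifs searched were not among these 250 bases: the cyclic AMP response element in full (TGACGTCA) and its core (TGACG), the TATA box (TATAAA), NR5A (CAAGGNCA), RUNX (TGTGGT), the full progesterone receptor motif (ACANNNTGT) and the full estrogen response element. A match describes letters only; binding was not measured.

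Values below are log2(intensity + 16) after quantile normalization, so 4 is the floor, and a change is a difference of group means on that scale with its standard error (SE), which understates the change of dim genes. A gene passed at an adjusted p under 0.05 from limma over all 18193 genes. The cells carried granulosa transcripts on every array: Inha, the inhibin alpha subunit, measured between 13.65 and 14.47, and the mean of 12 granulosa markers lay between 10.96 and 12.40. That mean was lowest on the bERKO hCG arrays (10.96 to 11.31), where Fshr, the FSH receptor, Inhbb, an activin and inhibin subunit (11.35 to 12.09), and Gata4, a transcription factor (8.45 to 9.76), also had their lowest values. The list did not fall as a whole. After hCG in bERKO 6 of 12 granulosa markers passed as lower in limma, where 11.9% of all genes did. A positive change was seen for 5 of the 12, Inha, Inhba and Fst among them. Esr2 measured 10.33, 9.01 and 9.33 in WT and 8.19, 8.64 and 8.13 in bERKO after PMSG, or -1.24 as a change, short of the threshold (limma, adjusted p = 0.307). After hCG it measured 8.68, 9.52 and 8.78 in WT and 8.34, 8.13 and 8.53 in bERKO, a smaller change of -0.66 that also missed the threshold (adjusted p = 0.397, limma). The labels do not place the Esr2 probe set inside or outside the deletion, so it checks the genotype only in part. A pair of arrays had a high Gapdh 3'/5' signal ratio, a sign of degraded or incompletely copied RNA: replicate 3 of bERKO PMSG at 23.7 and replicate 1 of WT hCG at 32.2, the remaining arrays lying between 4.72 and 11.2. Median deposited intensity ran from 49.1 to 112.8 per array, and the number of arrays limits the precision.

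Plau, the urokinase gene, rose 4 h after hCG in bERKO granulosa cells. On its brighter probe set (1422139_at) the bERKO PMSG arrays read 11.44, 11.42 and 10.77, and the bERKO hCG arrays read 14.03, 14.06 and 14.31. The highest PMSG value lay far below the lowest hCG value. The change was 2.92 (SE 0.35), or 7.56-fold on that scale, and it passed in limma (adjusted p = 0.000392). The median change of all genes in this comparison was -0.19. In bulk samples such as these, fewer or more cells of a type and less or more RNA per cell cannot be told apart. Between the same groups, 5 of 12 endothelium markers and 2 of 15 stroma and smooth muscle markers rose, and 6 of 12 granulosa markers and 8 of 17 oocyte markers fell. Of 16 leukocyte markers 2 rose and 1 fell, and of 7 theca and interstitium markers 1 rose and 2 fell. Over all genes 7.05% rose and 11.9% fell past the threshold in limma. The mean of the granulosa list went from between 11.84 and 12.09 to between 10.96 and 11.31. The part of these cells in the change of Plau was not tested.

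In WT cells Plau measured 11.23, 12.23 and 11.87 after PMSG and 12.40, 13.05 and 13.41 after hCG. The hCG arrays were all above the PMSG arrays, by a narrow margin at WT hCG replicate 1, the array with a Gapdh ratio of 32.2. The change of 1.18 (SE 0.35) stayed short of the threshold (adjusted p = 0.107, limma), and it was 1.44 (adjusted p = 0.0389, limma) without WT hCG replicate 1 and bERKO PMSG replicate 3 together.

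Between genotypes, Plau was not clearly apart before hCG. After PMSG the bERKO and WT ranges overlapped, and the change of -0.56 (SE 0.35) missed the threshold (adjusted p = 0.668, limma). After hCG every bERKO array lay above every WT array, and the change was 1.18 (SE 0.35), which missed the threshold in limma (adjusted p = 0.0955). The difference of the hCG responses, bERKO minus WT, was 1.74 (SE 0.49) and did not pass either (adjusted p = 0.114, limma). A response that passed in bERKO and not in WT is therefore not shown to differ between the genotypes. The levels were ordered bERKO PMSG, WT PMSG, WT hCG, bERKO hCG from low to high, and of these neighbours only the PMSG pair overlapped.

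The dimmer Plau probe set (1422138_at) gave larger changes in each of these comparisons. It measured 6.61, 8.18 and 7.41 after PMSG and 12.50, 12.58 and 13.20 after hCG in bERKO, and 8.23, 9.69 and 8.95 against 8.33, 11.09 and 11.46 in WT. WT hCG replicate 1 stayed within the range of WT PMSG, unlike replicates 2 and 3 of its group. The bERKO response was 5.36 (SE 0.72) and passed in limma over all 34945 probe sets (adjusted p = 0.00085), and the WT response was 1.34 (SE 0.72, adjusted p = 0.414). After PMSG its bERKO arrays all lay below its WT arrays, by -1.56 (SE 0.72, adjusted p = 0.538). Both probe sets gave the same sign in every comparison, but their sizes differed, from 2.92 to 5.36 for the bERKO response.

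**Figure D1:**
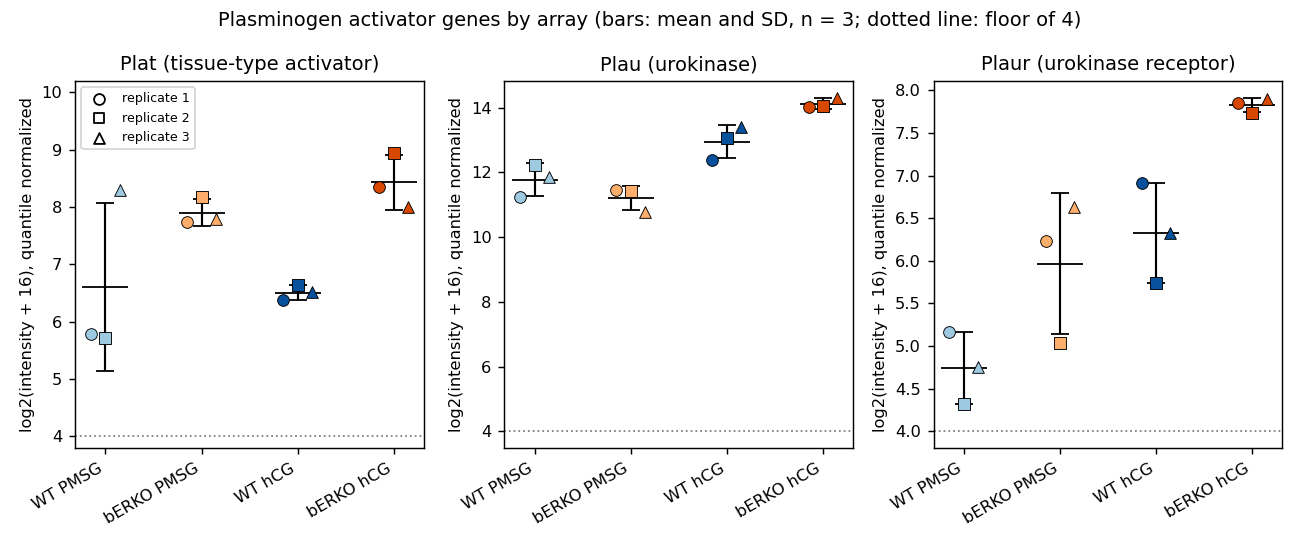
Normalized log2(intensity + 16) of Plat, Plau and Plaur (vertical axes) on each array by group (horizontal axes), with mean and SD of 3 arrays per group. Plau and Plaur sit highest on the bERKO hCG arrays (14.03 to 14.31 and 7.74 to 7.90), and 1 WT PMSG array, replicate 3, lies at 8.30 for Plat while the other 2 arrays of its group are at 5.72 and 5.79.

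Plat, the tissue-type activator, did not pass in either hCG response. Its brighter probe set (1415806_at) measured 5.79, 5.72 and 8.30 in WT after PMSG and 6.37, 6.64 and 6.52 in WT after hCG. WT PMSG replicate 3 stood far above the rest of its group, so the groups overlapped. The change of -0.09 (SE 0.57, adjusted p = 0.962 in limma) turned to 0.75 (adjusted p = 0.341) without that array, and its sign also turned with values as deposited (0.18) and on the other probe set (0.27). In bERKO Plat measured 7.74, 8.18 and 7.79 after PMSG and 8.35, 8.94 and 8.001 after hCG, overlapping ranges with a change of 0.53 (SE 0.57, adjusted p = 0.571 in limma).

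Plat had its higher means in bERKO. After hCG the 3 bERKO arrays (8.001 to 8.94) all lay above the 3 WT arrays (6.37 to 6.64), a change of 1.92 (SE 0.57) that missed the threshold in limma (adjusted p = 0.0955). After PMSG the change was 1.30 (SE 0.57, adjusted p = 0.499 in limma), with WT PMSG replicate 3 above every bERKO array. Without that array the change after PMSG was 2.14 (adjusted p = 0.0417) and that after hCG 1.92 (adjusted p = 0.0123), both past the threshold in limma. The second of these comparisons does not use the array, which enters only through the shared spread. The array stands out by its Plat value itself, so passing without it does not settle whether the genotypes differ. With other arrays left out singly, adjusted p in limma ran up to 0.813 after PMSG and 0.25 after hCG. The dimmer probe set (1458553_at), near the floor in WT at 4.27 to 5.49, had changes of 0.65 (SE 0.49) after PMSG and 1.57 (SE 0.49) after hCG, which both missed the threshold (limma, adjusted p = 0.737 and 0.125). The difference of the hCG responses was 0.62 (SE 0.80, adjusted p = 0.766 in limma), and -0.22 without WT PMSG replicate 3. From low to high the means ran WT hCG (6.51 ± 0.13, SD, n = 3), WT PMSG (6.60 ± 1.47, SD, n = 3), bERKO PMSG (7.91 ± 0.24, SD, n = 3) and bERKO hCG (8.43 ± 0.47, SD, n = 3), and each neighbouring pair overlapped.

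Markers of other ovarian cells moved with Plat on some arrays and not on others. On WT PMSG replicate 3, where Plat was high, the mean of 15 stroma and smooth muscle markers was 7.53 against 5.66 and 5.81 on the other WT PMSG arrays, and Col1a1, a collagen chain, measured 10.49 against 7.85 and 6.82. On the same array the mean of 17 oocyte markers was 7.54 against 5.56 and 5.90, and Zp3, a zona pellucida protein, measured 8.84 against 4.92 and 4.04, near the floor. The bERKO PMSG arrays, all high in Plat, also had high oocyte means (7.799 up to 9.03), although 0 of 17 oocyte markers passed against WT in limma. Of these 11 were at an unadjusted p under 0.05, as were 1733 of all 18193 genes. The stroma means of bERKO PMSG replicates 1 and 2 were only 6.54 and 5.99. On the bERKO hCG arrays, where the mean of Plat was highest, oocyte means were 6.17 to 7.055, below the 7.54 of WT PMSG replicate 3. For bERKO against WT after hCG, 4 of 12 endothelium markers, 1 of 15 stroma and smooth muscle markers, 0 of 16 leukocyte markers and 0 of 17 oocyte markers passed as higher in bERKO in limma. Of all genes 1.55% passed as higher there and 3.09% in either direction. At an unadjusted p under 0.05 in either direction the leukocyte list held 5 and the oocyte list 1, where all 18193 genes held 3183. In the same comparison 4 of 12 granulosa markers and 1 of 7 theca and interstitium markers passed as lower in bERKO in limma.

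The summed intensity of the granulosa list ran from 97650 to 131900 on the WT hCG arrays and from 75610 to 93030 on the bERKO hCG arrays, and that of the theca and interstitium list from 9248 to 13850 and from 4037 to 7591. The summed intensity of the stroma list ran from 2240 to 3201 on the WT hCG arrays and from 4389 to 16960 on the bERKO hCG arrays. That of the endothelium list ran from 444.2 to 648.7 and from 1418 to 2899, and that of the leukocyte list from 571.9 to 819.7 and from 1080 to 2397. The oocyte list ran from 1001 to 1750 and from 1356 to 3288, and after PMSG from 718.3 to 5675 in WT and from 6674 to 20730 in bERKO. Of the defining markers, the leukocyte gene Ptprc was near the floor on the WT hCG arrays (4.32 to 5.06), the vascular cadherin Cdh5 was near it on WT hCG replicate 1 alone (4.34), and Emcn was near it on the bERKO PMSG arrays (4.19 to 4.77). The part of these cells in the values of Plat, Plau and Plaur was not tested.

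**Figure D2:**
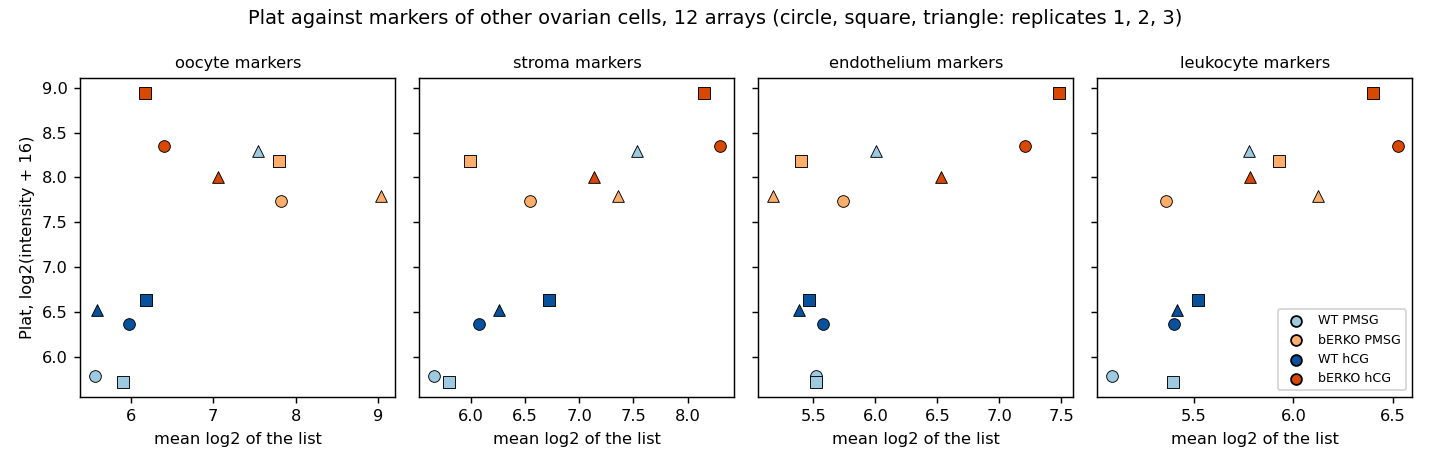
Plat (vertical axes, normalized log2) against the mean of each marker list (horizontal axes, normalized log2) on the 12 arrays, coloured by group and with a shape per replicate. WT PMSG replicate 3 (light blue triangle, Plat at 8.30) sits away from the other WT PMSG arrays on the stroma list (7.53) and the oocyte list (7.54), and the bERKO hCG arrays are the highest on the endothelium list (6.53 to 7.48).

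Plaur, the urokinase receptor, rose after hCG in bERKO. Its single probe set (1452521_a_at) read 6.23, 5.04 and 6.63 in bERKO after PMSG, then 7.86, 7.74 and 7.90 after hCG. The hCG arrays were close together and all above the PMSG arrays. The change was 1.87 (SE 0.43), or 3.64-fold on this scale, and passed in limma (adjusted p = 0.0106).

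In WT the receptor was near the floor before hCG, at 5.16, 4.32 and 4.75, and measured 6.91, 5.74 and 6.33 after it. In deposited intensities those arrays read 16.6, 3.51 and 9.81 after PMSG and 104.2, 44.4 and 86.9 after hCG. The ranges did not overlap, and the change of 1.58 (SE 0.43) missed the threshold in limma (adjusted p = 0.081). Near the floor its size rests on the offset: it was 2.58 with log2(intensity + 1) and 0.79 with log2(intensity + 64). It passed with values as deposited (1.83, adjusted p = 0.0318) and without bERKO PMSG replicate 2 (1.59, adjusted p = 0.0447), both in limma. That array is not used in this comparison and enters only through the shared spread. With other arrays left out singly, adjusted p in limma ran up to 0.235.

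The genotypes differed in Plaur by 1.503 (SE 0.43) after hCG, with all bERKO arrays above all WT arrays, and this missed the threshold in limma (adjusted p = 0.0827). Without bERKO PMSG replicate 2 it was 1.501 (adjusted p = 0.0477), past the threshold in limma. Here too that array enters only through the shared spread, and leaving out others gave adjusted p up to 0.207 in limma. After PMSG the change was 1.22 (SE 0.43, adjusted p = 0.393 in limma), and bERKO PMSG replicate 2, at 5.04, lay within the WT range. The difference of the hCG responses was 0.28 (SE 0.60, adjusted p = 0.869 in limma). It turned to -0.19 without bERKO PMSG replicate 2 and to -0.34 with log2(intensity + 1), so no direction is drawn from it. The means ran WT PMSG (4.74 ± 0.42, SD, n = 3), bERKO PMSG (5.97 ± 0.83, SD, n = 3), WT hCG (6.33 ± 0.59, SD, n = 3) and bERKO hCG (7.83 ± 0.08, SD, n = 3), and bERKO hCG was the level that overlapped no neighbour in this order.

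Over the members, chosen with earlier results of these data known, 2 of the 3 genes passed as higher after hCG in bERKO. Of all genes 7.05% passed as higher there and 18.9% in either direction. Of the genes that passed there, 37.2% were higher, against 43% with values as deposited and 24.3% after median centring. In WT 0 of 3 passed in limma, where 2.08% of all genes passed. At an unadjusted p under 0.05 were 2 members and 3115 of all 18193 genes. For bERKO against WT, 0 of 3 passed after PMSG (0.011% of all genes) and 0 of 3 after hCG (3.09% of all genes), both in limma. Unadjusted p was under 0.05 for 2 members and 1733 of all genes after PMSG, and for 3 members and 3183 of all genes after hCG. For the difference of the hCG responses, 0 of 3 passed in limma (1.31% of all genes). There 1 member and 2783 of all genes had an unadjusted p under 0.05. On the probe set standing for each gene, groups did not overlap, with the first group higher, for Plau and Plaur in both hCG responses. Of all genes 8.79% did so in WT and 13.3% in bERKO. The same held for all 3 members between the genotypes after hCG (11.4% of all genes). On the dimmer probe sets, Plat overlapped between the genotypes after hCG and Plau overlapped in the WT hCG response. The median change of the 3 members was 1.18 for hCG in WT and 1.87 in bERKO, against -0.08 and -0.19 over all genes.

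The mean of both genotype differences, a contrast added after the values were seen, was 1.61 (SE 0.40) for Plat and 1.36 (SE 0.30) for Plaur. Neither passed in limma (adjusted p = 0.142 and 0.12), where 0.143% of all genes did. For Plau it was 0.31 (SE 0.25, adjusted p = 0.66). Without WT PMSG replicate 3 the Plat value was 2.03 and passed in limma (adjusted p = 0.0158), and without bERKO PMSG replicate 2 the Plaur value was 1.59 with an adjusted p of 0.04999. Each of these arrays stands out by its value of the gene itself. Leaving out others gave adjusted p in limma up to 0.284 for Plat and 0.245 for Plaur. Between the genotypes after PMSG, Plat and Plaur had higher means in bERKO and Plau a lower one, so the members did not share a direction there.

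**Figure D3:**
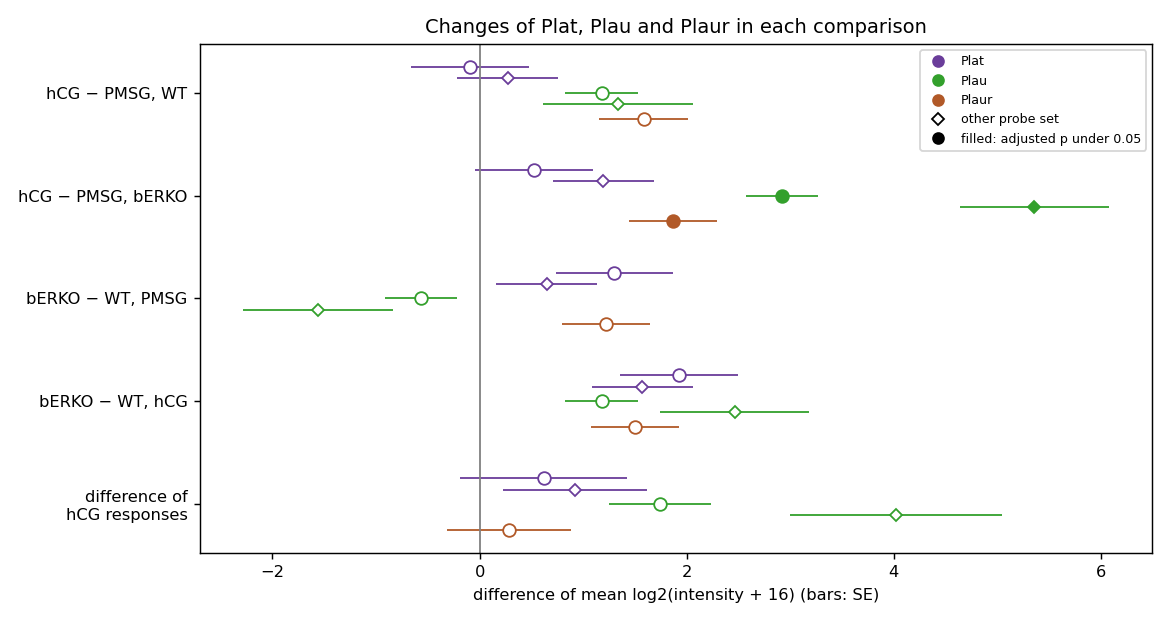
Changes of Plat, Plau and Plaur (horizontal axis, difference of mean log2(intensity + 16), bars SE) in each comparison (vertical axis), with circles for the brighter and diamonds for the other probe set. Filled points passed at an adjusted p under 0.05; these are Plau at 2.92 and 5.36 and Plaur at 1.87, all in the hCG response of bERKO.

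The genes whose pattern over the 12 arrays was most like each member were found by Pearson's r among 8832 genes (8833 for Plaur) at or above the median level; the arrays share their groups, so these values are a description. For Plau they were Zpr1 (0.99), Mrap (0.98), an accessory protein of melanocortin receptors, and Hnrnpdl (0.98), an RNA-binding protein. For Plaur they were Ugdh (0.95), the enzyme that makes UDP-glucuronic acid, the exchange factor Sos2 (0.94) and Rnf138 (0.93). For Plat they were the transglutaminase Tgm2 (0.87), Epg5 (0.85) and the collagen gene Col1a1 (0.84). Between members, r was 0.66 for Plau with Plaur, 0.49 for Plat with Plaur and 0.26 for Plat with Plau.

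The wider pathway held 65 further genes in 5 lists, of which 58 were measured. After hCG in bERKO, 12 rose and 2 fell, which is 20.7% and 3.45% of the 58, where 7.05% of all genes rose and 11.9% fell. The lists were chosen with earlier results of these data known, so these shares are a description only. After hCG in WT 0 of 58 passed in limma, with 12 at an unadjusted p under 0.05, as were 3115 of all 18193 genes. For bERKO against WT, 0 of 58 passed after PMSG in limma, with 4 at an unadjusted p under 0.05, as were 1733 of all 18193 genes. After hCG 2 passed, both higher, or 3.45% where 1.55% of all genes passed as higher. The median change of the 58 genes was 0.15 in WT and 0.27 in bERKO after hCG, against -0.08 and -0.19 over all genes.

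Among coagulation and fibrin genes, 6 of 14 rose in bERKO after hCG and 0 fell, where 7.05% of all genes rose and 11.9% fell. Fn1, the matrix protein fibronectin, measured 7.36, 6.47 and 7.49 after PMSG and 10.72, 10.25 and 9.88 after hCG in bERKO, a rise of 3.18 (SE 0.37, adjusted p = 0.000342 in limma). In WT Fn1 measured 8.15, 8.12 and 8.94 after PMSG and 8.68, 9.26 and 8.60 after hCG, overlapping ranges. F2r, a thrombin receptor, rose by 4.09 (SE 0.48, adjusted p = 0.000345 in limma). Procr, the receptor of protein C, rose by 7.17 (SE 1.11, adjusted p = 0.00139 in limma), from 4.57 to 6.54 up to 12.72 to 13.12, with a lower end near the floor. In WT Procr measured 6.15, 5.42 and 7.11 after PMSG and 5.797, 10.49 and 11.19 after hCG. Replicates 2 and 3 of WT hCG lay far above WT PMSG, and replicate 1, the array with a Gapdh ratio of 32.2, did not; the change of 2.93 (SE 1.11) missed the threshold in limma (adjusted p = 0.201). The rest of the 6, named after their values were seen, were F3, which encodes tissue factor (6.40; 3.31 in WT, adjusted p = 0.118 in limma), the thrombin-binding thrombomodulin gene Thbd (2.34) and the fibrinogen chain Fgb (1.21). On the WT hCG arrays F3 measured 7.02, 11.43 and 11.50, against 5.80 to 7.31 after PMSG, again with replicate 1 not raised. Endothelium markers rose on the same arrays, 5 of 12 in bERKO after hCG, while 6 of 12 granulosa markers fell, and the part of these cells in the values was not tested.

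Among urokinase receptor partners and clearance receptors, 4 of 14 rose and 2 fell in bERKO after hCG, where 7.05% of all genes rose and 11.9% fell. Itgb3, the integrin beta 3 chain of the vitronectin receptor, measured 8.56, 8.91 and 9.05 after PMSG and 12.26, 12.32 and 10.69 after hCG, a rise of 2.92 (SE 0.46, adjusted p = 0.00157 in limma). Vldlr, an endocytic receptor that takes up activator-inhibitor complexes, rose by 1.43 (SE 0.33, adjusted p = 0.011 in limma), though its 6 probe sets ran from -0.14 to 1.71. The fibronectin-binding integrin chain Itga5 rose by 1.25 (SE 0.32, adjusted p = 0.0185 in limma), which was lost without bERKO PMSG replicate 2 (1.05, adjusted p = 0.0615) or bERKO hCG replicate 3 (1.12, adjusted p = 0.0684). The others, named after their values were seen, were the collagen receptor Mrc2 (2.06), which binds the urokinase receptor, and, lower, the clearance receptor Lrp1 (-1.19) and the integrin chain Itgb5 (-1.35). Mrc2 was not raised on bERKO hCG replicate 3, at 6.115, within its bERKO range after PMSG of 5.15 to 6.17. Itgb3 was also higher in bERKO than in WT after hCG, by 2.22 (SE 0.46, adjusted p = 0.0295 in limma). That call was lost without WT hCG replicate 1 (2.37), WT hCG replicate 3 (1.84), bERKO hCG replicate 1 (1.96) or bERKO hCG replicate 2 (1.93).

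Of 12 measured inhibitors of the activators and plasmin, 1 rose and 0 fell in bERKO after hCG. Of all genes 7.05% rose and 11.9% fell there, so a count of 1 is near the share of all genes. The gene that rose was Serpinb9, kept in this list although it is an intracellular serpin known as an inhibitor of granzyme B. It measured 7.98, 8.35 and 8.23 after PMSG and 12.22, 11.96 and 11.99 after hCG, a rise of 3.87 (SE 0.62, adjusted p = 0.00165 in limma). In WT it measured 7.83, 7.36 and 7.37 after PMSG and 7.71, 9.61 and 11.09 after hCG, widely spread and lowest on WT hCG replicate 1. Its change between the genotypes after hCG, 2.59 (SE 0.62, adjusted p = 0.0479 in limma), was 1.71 (adjusted p = 0.0809) without that array, and the call was lost on leaving out any of 11 of the 12 arrays, all but WT hCG replicate 3, and with the replicate number as a block (adjusted p = 0.0655). Serpinb2, which encodes plasminogen activator inhibitor 2, lay near the floor at 4.04 to 5.08 on the PMSG and WT hCG arrays. In bERKO after hCG it measured 5.355, 5.78 and 4.07, and its change between the genotypes there, 0.85, missed the threshold (adjusted p = 0.325, limma).

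Of 4 measured genes for plasminogen and its surface receptors, 1 rose in bERKO after hCG, where 7.05% of all genes rose. It was S100a10, which binds plasminogen with annexin A2, with a rise of 0.73 (SE 0.22, adjusted p = 0.0383 in limma). This call is fragile: its 3 probe sets ran from 0.12 to 3.58, the change was 0.18 with each array centred on its median, and the call was lost on leaving out any of 9 arrays, all but WT hCG replicates 1 and 3 and bERKO hCG replicate 3, and with the replicate number as a block (adjusted p = 0.0602, limma). Plg, plasminogen itself, was near the floor on most arrays, at 4.07 to 5.81. The list of activating proteases and the contact system held 14 genes, among them Ctsb, Ctsl and St14. It also held Hgf, a growth factor, and Met, its receptor, which do not activate plasminogen. In limma 0 of the 14 passed in any of the 5 comparisons. Unadjusted p was under 0.05 for 1 in each hCG response and 0 in the others. Over all 18193 genes it was so for 3115 in WT and 5863 in bERKO after hCG. After hCG in bERKO, Hgf had a change of 0.90 and Ctsb one of -0.21.

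**Figure D4:**
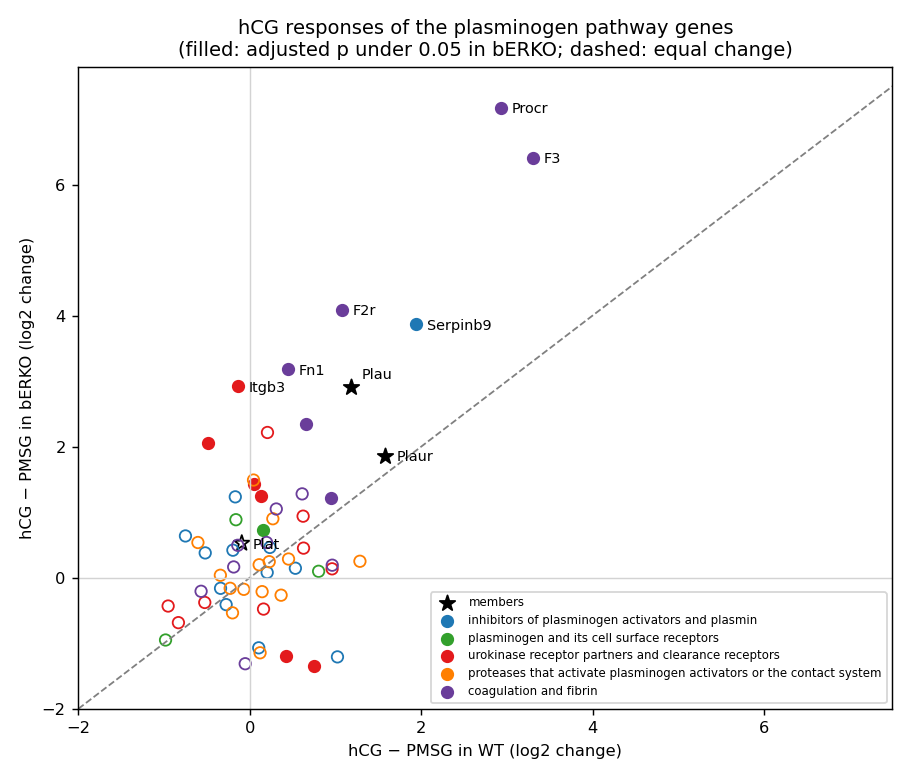
Change after hCG in WT (horizontal axis, log2) against that in bERKO (vertical axis, log2) for the 3 members (stars) and 58 pathway genes (circles, coloured by list), with filled symbols for those that passed in bERKO. Procr (7.17) and F3 (6.40) lie highest, and Plau (1.18 in WT, 2.92 in bERKO) and Plaur (1.58 and 1.87) lie above the dashed line of equal change. Neither member passed in the difference of responses (adjusted p = 0.114 and 0.869 in limma), and for Plaur its sign turned under some settings.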

How the data were processed

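Transcript levels came from 12 one-colour Affymetrix-type mouse arrays. Per the labels' protocols, RNA (25 ng per sample) was amplified by a NuGEN Ovation kit and biotin-labelled. The authors deposited a linear intensity for each probe set, scaled on every array to a 2% trimmed mean of 500.0; which software did so is not stated in the labels. Of 45101 probe sets, 64 controls were removed; values were quantile normalized and analysed as log2(intensity + 16), because array medians differed by 0.98 on that scale. A table pairing probe sets with genes named 1 gene for 34945 probe sets, several for 932 and none for 9160. The brightest one-gene probe set stood for each gene, with no filter on dim genes, and other probe sets served as a check.

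Group means were fitted with limma 3.58.1 (R 4.3.3) over 4 groups of 3, sharing 1 spread per gene. Two-sided p-values were adjusted by Benjamini-Hochberg over all genes within a contrast. The fit was tested on simulated data. The replicates are labelled biological. The members and lists were chosen with earlier results of these data known. Named pathway genes are the 3 smallest p-values per list and contrast among those passing; others are stated as chosen after their values were seen. Alternatives covered scaling, the offset, a filter on dim genes, array weights, an intensity trend, a replicate block, other probe sets and left-out arrays. Promoter sequence came from RefSeq's table; promoters matched 2 of the 4 genes.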

Additional observations from a re-analysis of the deposited data

Results flagged for a closer look

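The hCG responses of 2 pathway genes differed between the genotypes by the test of the difference itself in limma. For Itgb3 the difference, bERKO minus WT, was 3.06 (SE 0.66, adjusted p = 0.0479), with a response of -0.14 in WT and 2.92 in bERKO; its 2 probe sets gave 1.97 and 3.06. For Fn1 it was 2.74 (SE 0.52, adjusted p = 0.0339), with responses of 0.44 and 3.18; its 2 probe sets gave 1.34 and 2.74. These were 2 of 58 pathway genes, or 3.45%, where 1.31% of all genes passed, in lists chosen with earlier results of these data known. The Itgb3 call was lost on leaving out any of 11 of the 12 arrays, all but bERKO hCG replicate 3, with values from 2.69 to 3.32 where it was lost. The Fn1 call was lost on leaving out any WT PMSG array, replicate 1 of bERKO PMSG or of WT hCG, or replicate 1 or 2 of bERKO hCG, with adjusted p up to 0.0837. With the replicate number as a block both calls were lost in limma (adjusted p = 0.061 for Itgb3 and 0.0659 for Fn1). In the same comparison 2 of 12 endothelium markers passed as higher and all 12 were positive, with a median of 1.77, and the median of 15 stroma and smooth muscle markers was 1.36. Itgb3 measured 12.26, 12.32 and 10.69 on the bERKO hCG arrays, and the mean of the stroma list on them was 8.30, 8.15 and 7.14, both lowest on replicate 3. The part of these cells in both differences was not tested.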

How the results depend on the processing

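Plau and Plaur rose after hCG in bERKO, past the threshold in limma, under every setting in which they were tested, and no setting gave any member the opposite sign past the threshold. With 1 array left out, Plau ran from 2.67 to 3.02 and Plaur from 1.40 to 2.20. The counts of all genes passing moved more. The main counts were 378 for hCG in WT, 3447 for hCG in bERKO, 2 for genotype after PMSG, 562 for genotype after hCG and 239 for the difference of responses.

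With values as deposited, the WT count was 233, the PMSG genotype count 7, Plat in WT 0.18, and Plaur in WT 1.83. Centring each array on its median gave a PMSG genotype count of 5 and Plau at 1.48 between genotypes after hCG. Over all genes the median bERKO response was -0.194 after quantile normalization, -0.052 as deposited and -0.408 centred. The share of passing genes that were higher was 35.2%, 43.3% and 18.1% for hCG in WT under those scalings, and 50.2%, 39.1% and 66.5% for genotype after hCG. With log2(intensity + 1) the counts were 140 (WT), 0 (PMSG genotype), 225 (hCG genotype) and 95 (difference), and the Plaur difference was -0.34. With log2(intensity + 64) they were 870, 12, 882 and 454, and Plaur between genotypes after hCG was 1.08 and passed.

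Keeping genes above the median level gave 933 (WT), 5 (PMSG genotype) and 376 (difference), and Plau passed in WT (1.18) and between genotypes after hCG (1.18). Array weights gave 1598 (WT), 1239 (hCG genotype) and 420 (difference), with Plau at 1.30 and Plaur at 1.31 in WT and Plaur at 1.76 between genotypes after hCG, all passing. An intensity trend gave 804, 20, 921 and 510, and Plau passed in WT (1.18), between genotypes after hCG (1.18) and in the difference (1.74). Without both arrays of high Gapdh ratio the counts were 809 (WT), 7 (PMSG genotype), 238 (hCG genotype) and 103 (difference), with Plau at 1.44 in WT. The other probe set of Plat gave 0.27 in WT. The causes of these moves were not tested.

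For deviations from the group means, r of same-numbered arrays ran from -0.082 to 0.119 over 18 pairs, 1 of them over 0.1. For 36 pairs of unlike number it ran from -0.1155 to 0.073, 0 of them over 0.1. The median r was -0.011 and 0.004, and 6 of 12 arrays correlated best with their own number. Whether the numbers mark pairs is not settled by these values. With the replicate number as a block, 148 genes passed for hCG in WT and 129 for the difference, 3150 passed for hCG in bERKO, and no call on a member changed. The block ended 4 calls on pathway genes: the differences of Itgb3 (adjusted p = 0.061) and Fn1 (0.0659), Serpinb9 between genotypes after hCG (0.0655) and S100a10 after hCG in bERKO (0.0602), all in limma.

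With 1 array left out, counts ran from 53 (without WT hCG replicate 2) to 556 for WT, 0 to 26 (without WT PMSG replicate 3) for PMSG genotype, 140 (without WT hCG replicate 1) to 660 for hCG genotype and 81 (without bERKO hCG replicate 2) to 423 for the difference. Plat ran from -0.53 to 0.75 for hCG in WT, 0.85 to 2.14 for genotype after PMSG, 1.68 to 2.16 for genotype after hCG, -0.22 to 1.06 for the difference and 1.38 to 2.03 for the mean genotype difference. Plaur ran from 1.29 to 1.86 for hCG in WT, 1.21 to 1.797 for genotype after hCG, -0.19 to 0.59 for the difference and 1.201 to 1.595 for the mean genotype difference. Probe sets near the floor, those of Plaur and the dimmer one of Plat, limit what can be read in WT.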
